A study of Mus musculus with 19 samples.

Results

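Nom1 was followed as a viewpoint in capture Hi-C maps of the Shh locus of the mouse, a method that enriches 1 genomic region among DNA ends ligated in fixed nuclei and counts how often each pair of places was joined. Nom1 was represented by 3 of the 280 bins of the maps, the bins of 10 kb from chr5:29760001-29790000 (mm9), and its partners were the other 277 bins. The partners were read in 3 sides: the Shh domain (93 bins, chr5:28770001-29700000), the bins above (80 bins, chr5:29800001-30600000) and the bins below the domain (97 bins, chr5:27800001-28770000). The remaining 7 bins lie between the domain and the bins above, around Nom1, and belong to no side. In the protein-coding gene order of a newer mouse assembly (GRCm38.p6), Nom1 follows Shh, Rnf32 and Lmbr1 and comes before Mnx1, Ube3c and Dnajb6. No annotation of the mm9 build was used, so no gene other than Nom1 and Shh is placed at a bin, and the 3 bins are Nom1 by their given coordinates.

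The study has 19 samples in 9 groups. Each group was deposited as 1 merged map, so replicates show no spread here and nothing could be tested. Limb buds at stage E10.5 carried a deletion of the CTCF sites named i4 and i5 (i4i5 limb), of these and a CTCF site named for the ZRS (i4i5ZRS limb), of i4 and i5 together with the element ZRSreg (i4i5 plus ZRSreg limb), of ZRSreg alone (ZRSreg limb) or of the Lmbr1 promoter on both alleles (Lmbr1 promoter deletion), each with 2 samples. Midbrain of the same stage carried the i4i5ZRS deletion (2 samples) or was wild type (2 samples). The last groups are wild type embryonic stem (ES) cells (2 samples) and wild type limb buds (3 samples). Wild type limb and midbrain are of strain C57BL/6, whereas the ES cells and all deletions are labelled G4. Genotype and strain therefore cannot be told apart in a deletion over wild type comparison, nor can cell type and strain in ES cells over limb. By the series design the deletion samples are technical replicates. The 9 maps hold from 1177173 contacts (i4i5 limb) to 3218492 contacts (ES cells), and the 3 Nom1 bins took part in 23400 to 51825 contacts at separations of 20 kb or more.

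Nom1 encodes a nucleolar protein whose counterpart in yeast serves in the making of the small ribosomal subunit. Shh, which lies nearby, encodes Sonic hedgehog, a secreted signal for the patterning of limbs and neural tube. The limb enhancer of Shh, the ZRS, lies in an intron of Lmbr1, far from Shh and near the upper end of the domain, and CTCF is a DNA-binding protein that stalls loop extrusion by cohesin and marks many domain borders. A gene placed just beyond such a border is a place to see how much contact passes it.

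The annotated promoter of Nom1 is shown because it lies at the viewpoint's gene start. It covers 250 bases before to 50 after the start on the plus strand, at chr5:29434417-29434716 in GRCm38.p6, which is another build than that of the maps, and the sequence is from RefSeq. The capitals mark each match to CCGGAAGT, which holds the GGAA core bound by ETS factors. The motif was picked after the sequence had been seen.
Nom1 promoter: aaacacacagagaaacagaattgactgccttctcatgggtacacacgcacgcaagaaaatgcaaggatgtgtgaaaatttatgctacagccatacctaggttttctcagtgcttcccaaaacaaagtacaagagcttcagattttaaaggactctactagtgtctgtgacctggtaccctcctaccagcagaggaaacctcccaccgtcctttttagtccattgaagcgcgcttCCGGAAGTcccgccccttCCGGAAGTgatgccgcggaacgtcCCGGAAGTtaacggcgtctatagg
The promoter holds 3 such matches, all on the plus strand when both strands are searched, and the matches do not overlap. Of 32851 mouse promoters of this length, 1277 (3.89%) hold at least 1 match, and 6 hold 3 or more. The letters GATC, the site of the enzyme DpnII that cut the DNA in this assay, do not occur in it, while 48.0% of the promoters hold one. These 300 bases therefore lie within 1 restriction fragment, far below the size of a 10 kb bin.

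The first question was which side Nom1 contacts. Values are observed over expected unless another scale is named. Each map's balanced signal was scaled by its own average over pairs equally far apart, so that 1 is the average of the region. Brackets hold a 95% interval, which covers counting error only and compares libraries rather than conditions. In the wild type maps Nom1 contacted the Shh domain less than the average and the bins above at about the average. Domain contact was 0.603 in ES cells (0.582 to 0.623), 0.738 in wild type midbrain (0.715 to 0.762) and 0.638 in wild type limb (0.621 to 0.656). Contact with the bins above was 0.955 in ES cells, 1.05 in midbrain and 1.07 in limb. On the log2 scale, domain over above was -0.66 in ES cells (-0.72 to -0.61), -0.50 in midbrain (-0.56 to -0.45) and -0.75 in limb (-0.80 to -0.70). Of the 93 domain bins, 7 exceeded 1 in ES cells, 11 in midbrain and 9 in limb. Nom1 thus had more contact on its own side of the border in each of these 3 maps. The 2 sides differ in their separations, which run from 80 to 1000 kb in the domain and from 30 to 820 kb above. With both sides held to 100 to 800 kb the log2 value was -1.18, -0.84 and -1.11 in ES cells, midbrain and limb.

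**Figure D1:**
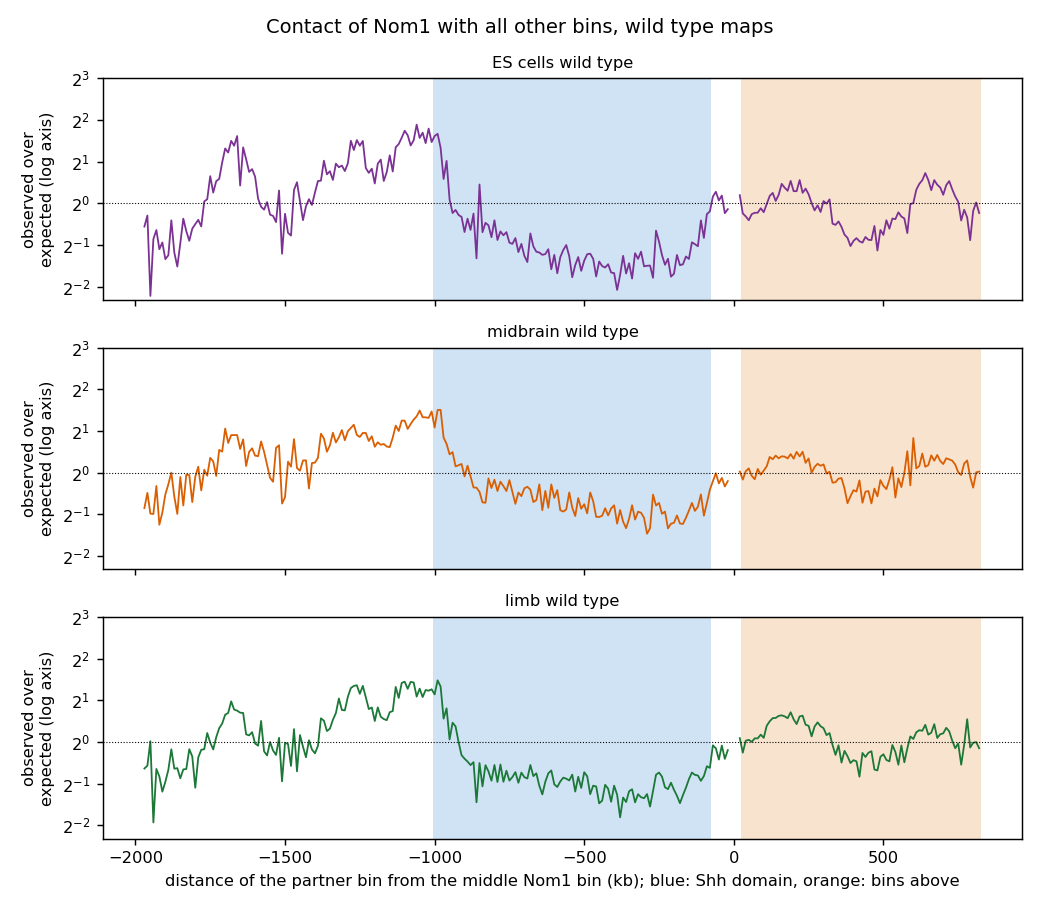
Observed over expected contact (log axis) of the 3 Nom1 bins with each partner bin against its distance from the middle Nom1 bin in kb, in ES cells, midbrain and limb of wild type. Contact is below 1 along most of the Shh domain (blue), climbs at its far end near Shh about 1000 kb away, and swings around 1 in the bins above (orange).

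The deficit inside the domain was uneven along it. Divided into 3 stretches of 31 bins, the stretch nearest Nom1 stood at 0.444 in ES cells, 0.513 in midbrain and 0.475 in limb, and the middle one at 0.393 in ES cells, 0.605 in midbrain and 0.507 in limb. The stretch nearest Shh stood at 0.971 in ES cells, 1.10 in midbrain and 0.933 in limb. The near and middle stretches thus lay well below the regional average. The mean of the stretch nearest Shh was close to it, but the median of its bins was 0.694 in ES cells, 0.884 in midbrain and 0.683 in limb, and 7, 11 and 9 of the 31 bins stood above 1. The ZRS window, the 5 bins chr5:29620001-29670000 at 110 to 150 kb from Nom1, was placed from the known distance between Shh and the ZRS. It had 0.534 in ES cells, 0.586 in midbrain and 0.564 in limb, although it is one of the nearest parts of the domain. The lowest domain bin at 100 kb or more was at 0.237 in ES cells (390 kb away), 0.362 in midbrain (290 kb) and 0.286 in limb (380 kb), on 17, 45 and 26 contacts.

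Between Nom1 and the domain lie 6 bins at 20 to 70 kb. They stood at 1.05 in ES cells (1.02 to 1.08), 0.880 in midbrain (0.849 to 0.911) and 0.862 in limb (0.837 to 0.888), and ES cells exceeded limb by 0.28 on the log2 scale (0.22 to 0.34) with all 6 bins higher. The first of these bins above the domain, 70 kb from Nom1, had 1.12 in ES cells, 0.868 in midbrain and 0.947 in limb. On the other side the bin 20 kb above Nom1 had 1.145 in ES cells, 1.02 in midbrain and 1.07 in limb. The next one, 30 kb above, had 0.846 in ES cells, 0.892 in midbrain and 0.839 in limb. ES cells therefore had more contact on the domain-facing side close by and less inside the domain's middle stretch, where the log2 ratio to limb was -0.37 (-0.47 to -0.27).

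At the far end the picture turned round. The 2 bins of the Shh promoter (chr5:28780001-28800000), 980 to 990 kb from Nom1, had 2.85 in ES cells (2.54 to 3.20, 316 contacts), 2.84 in midbrain (2.54 to 3.18, 348 contacts) and 2.66 in limb (2.42 to 2.92, 505 contacts). They were the domain's highest partner bins for Nom1 in all 3 maps. These values do not set Shh apart from the place beyond it, since the 100 kb just below the domain, at 1010 to 1100 kb from Nom1, stood at 3.08 in ES cells, 2.48 in midbrain and 2.44 in limb. Promoter over these 10 flanking bins was -0.11 on the log2 scale in ES cells (-0.30 to 0.08), 0.20 in midbrain (0.01 to 0.39) and 0.12 in limb (-0.03 to 0.28). The bins below the domain as a whole stood at 1.58 in ES cells, 1.46 in midbrain and 1.37 in limb, above the domain and the bins above alike. At these separations fewer pairs of the region exist than at short ones. The pairs that span the whole domain enter the expected value, as do Nom1's own pairs, which are a small part of it.

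Tissues differed modestly. Wild type midbrain had more domain contact than wild type limb, a log2 ratio of 0.21 (0.15 to 0.27), with 71 of 93 bins higher. Of the 91 domain partners at 100 kb or more, 9 were higher in midbrain by more than 1.5-fold, against 3.08% of all window and bin pairs of the region at these separations, and 0 were lower (4.73% in the region). With the signal taken as a share of each bin's total in place of observed over expected, the midbrain value was 0.09, and with counts before balancing it was 0.14. ES cells had slightly less domain contact than limb, -0.08 (-0.15 to -0.02), with 30 of 93 bins higher, 1 partner higher by more than 1.5-fold (5.5% in the region) and 11 lower (14.5% in the region). That value was -0.25 as a share of bin totals, -0.23 at 100 to 800 kb and -0.20 in counts before balancing. The near 40 bins above Nom1, at 30 to 420 kb, were lower in ES cells (0.953) and in midbrain (1.07) than in limb (1.17). The log2 ratios to limb were -0.29 (-0.33 to -0.25, 1 of 40 bins higher) for ES cells and -0.13 (-0.17 to -0.08, 10 of 40 higher) for midbrain. The comparisons with wild type limb share that map, and ES cells also differ from limb in their strain label.

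**Figure D2:**
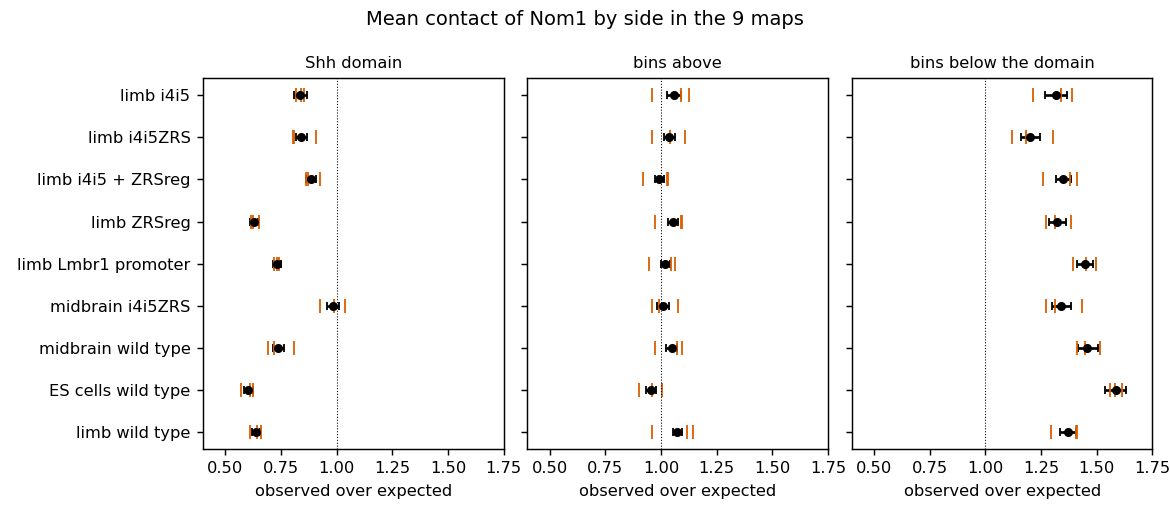
Mean observed over expected contact of Nom1 with the Shh domain, the bins above and the bins below the domain in the 9 maps. Black points with bars are the mean of the 3 Nom1 bins with its 95% counting interval, and orange ticks are the 3 Nom1 bins one by one. Domain contact runs from 0.603 in ES cells to 0.983 in i4i5ZRS midbrain, while contact above stays between 0.955 and 1.07.

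The next comparison asked how the CTCF sites bear on contact across the border. In each of the 4 maps that lack i4 and i5, Nom1 had more contact with the Shh domain. The level was 0.837 in i4i5 limb (0.809 to 0.867), 0.841 in i4i5ZRS limb (0.816 to 0.867) and 0.885 in i4i5 plus ZRSreg limb (0.864 to 0.907), against 0.638 in wild type limb. In i4i5ZRS midbrain it was 0.983 (0.956 to 1.01), against 0.738 in wild type midbrain. The contact was higher by 31.2%, 31.8% and 38.7% in the 3 limb maps and by 33.2% in midbrain. The log2 ratios were 0.39 (0.33 to 0.46), 0.40 (0.34 to 0.46) and 0.47 (0.42 to 0.53) in limb and 0.41 (0.35 to 0.47) in midbrain. Taken one by one, the 3 Nom1 bins gave 0.35 to 0.48 in i4i5 limb, 0.33 to 0.46 in i4i5ZRS limb, 0.42 to 0.51 in i4i5 plus ZRSreg limb and 0.36 to 0.52 in midbrain. The number of domain bins higher was 84, 84 and 90 of 93 in limb and 85 in midbrain. The SD of the log2 ratio over the 93 bins was 0.33 in i4i5 limb and 0.33 in i4i5ZRS limb. It was 0.28 in i4i5 plus ZRSreg limb and 0.30 in midbrain. This spread holds the counting error of single bins and does not measure how uneven the gain was. In ZRSreg limb over wild type limb, with a domain ratio of -0.02, the SD was 0.30. In the Lmbr1 promoter deletion, with a ratio of 0.20, it was 0.26. The 3 limb comparisons share 1 wild type map, so they are not independent of each other, and no replicate spread stands behind any of the 4. Against the ZRSreg limb map, which has the G4 label of the deletions, the limb ratios were 0.41, 0.42 and 0.49. As a share of bin totals the i4i5ZRS limb value was 0.24.

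The gain was spread over many partner bins. Among the 91 domain partners at 100 kb or more, 24 were higher by more than 1.5-fold in i4i5 limb (26.4%, against 8.5% of all window and bin pairs of the region at the same separations). The count was 24 in i4i5ZRS limb (6.03% in the region), 29 in i4i5 plus ZRSreg limb (5.92% in the region) and 20 in i4i5ZRS midbrain (6.54% in the region). Lower past that fold were 0 of these partners in i4i5 limb (4.23% in the region), 2 in i4i5ZRS limb (3.34%), 1 in i4i5 plus ZRSreg limb (2.33%) and 0 in i4i5ZRS midbrain (4.25%). None of the 73 partners above at 100 kb or more was higher past 1.5-fold in any of these maps.

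**Figure D3:**
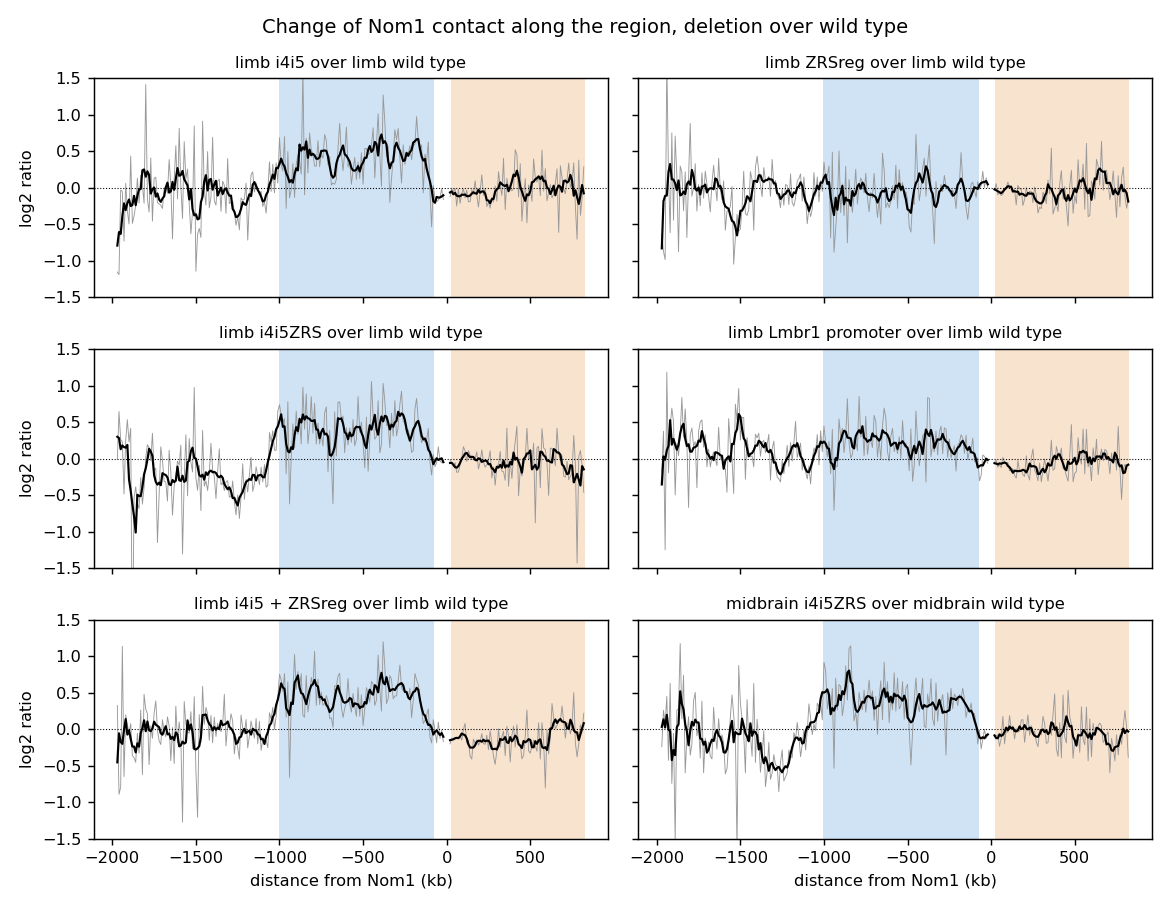
Log2 ratio of Nom1 contact along the region, deletion over wild type of the same tissue, against distance from Nom1 in kb. Grey lines are single partner bins, cut at 1.5 in either direction, and black lines are a mean over 5 bins. In the 4 maps that lack i4 and i5 the line is raised across the Shh domain (blue) and drops at both of its ends, while the bins above (orange) lie near 0.

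The gain ran along the whole domain. In i4i5 limb the log2 ratio was 0.37 in the stretch nearest Shh, 0.38 in the middle and 0.44 in the stretch nearest Nom1. In i4i5ZRS limb these were 0.42, 0.35 and 0.40, and in i4i5 plus ZRSreg limb 0.52, 0.41 and 0.44. In i4i5ZRS midbrain they were 0.49, 0.37 and 0.30, falling towards Nom1, with intervals of 0.38 to 0.59 at the Shh end and 0.22 to 0.38 at the Nom1 end. Within each limb map the intervals of the 3 stretches overlap. In midbrain those of the Shh end and the Nom1 end also overlap, narrowly, at 0.38. Levels in the middle and near stretches nevertheless stayed below 1 in each of the 4 maps, between 0.626 and 0.781, still under the regional average.

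The bins between the domain and Nom1, and the bins above, did not share the gain. Balancing gives each bin a fixed total, so a larger share in the domain leaves a smaller share elsewhere. The values of the other sides are therefore not independent of the gain. The 6 bins between the domain and Nom1 gave -0.14 in i4i5 limb (-0.22 to -0.06), -0.03 in i4i5ZRS limb (-0.09 to 0.04), -0.07 in i4i5 plus ZRSreg limb (-0.13 to -0.01) and -0.10 in i4i5ZRS midbrain (-0.18 to -0.03). Contact with the bins above was 1.06 in i4i5 limb, 1.04 in i4i5ZRS limb and 0.992 in i4i5 plus ZRSreg limb, against 1.07 in wild type limb. It was 1.01 in i4i5ZRS midbrain against 1.05 in wild type midbrain. The log2 ratios were -0.02 (-0.07 to 0.03), -0.05 (-0.09 to -0.0045), -0.11 (-0.15 to -0.07) and -0.05 (-0.11 to -0.0028). With counts before balancing the ratios of the bins above were 0.015, -0.040, -0.041 and -0.021 in the same order. On the balanced signal, domain over above came to -0.34 in i4i5 limb, -0.30 in i4i5ZRS limb and -0.16 in i4i5 plus ZRSreg limb. It was -0.75 in wild type limb. In midbrain it was -0.04 in i4i5ZRS (-0.09 to 0.02), against -0.50 in wild type, so in this deletion the interval includes equal contact on both sides. Held to 100 to 800 kb, a range that leaves out the far end of the domain, the i4i5ZRS midbrain value was -0.44. It turned positive with the median as the expected value (0.036) and with counts before balancing (0.22), so its direction depends on the scale.

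The Shh promoter gained in the same maps. Nom1 contacted it at 3.22 in i4i5 limb (309 contacts), 3.89 in i4i5ZRS limb (416 contacts) and 4.04 in i4i5 plus ZRSreg limb (722 contacts), against 2.66 in wild type limb (505 contacts). In i4i5ZRS midbrain it was 4.21 (461 contacts), against 2.84 in wild type midbrain (348 contacts). The log2 ratios were 0.28 (0.06 to 0.50), 0.55 (0.35 to 0.75), 0.61 (0.43 to 0.78) and 0.57 (0.35 to 0.78). The 100 kb just below the domain moved less, by 0.02 (-0.11 to 0.15), 0.09 (-0.04 to 0.21) and 0.06 (-0.05 to 0.17) in the limb maps and by 0.17 (0.04 to 0.29) in midbrain. Promoter over flank therefore differed from wild type by 0.26 (0.01 to 0.51) in i4i5 limb, 0.47 (0.23 to 0.70) in i4i5ZRS limb, 0.55 (0.34 to 0.75) in i4i5 plus ZRSreg limb and 0.40 (0.15 to 0.65) in midbrain. The measure was chosen after the profiles had been seen. The highest domain partner was a promoter bin, 990 kb away, in 3 of these maps, at 4.21 in i4i5ZRS limb, 4.47 in i4i5 plus ZRSreg limb and 4.97 in i4i5ZRS midbrain. In i4i5 limb it was the bin next to the promoter, 1000 kb away, at 3.56 (2.67 to 4.77) on 50 contacts. ZRSreg limb, whose label names no CTCF site, had 2.95 at the promoter and a flank of 2.22 against 2.44 in wild type limb. Its promoter over flank value was 0.28 above wild type (0.05 to 0.51), beside 0.26 in i4i5 limb, with a flank ratio of -0.13 (-0.25 to -0.02). Set against ZRSreg limb, which is also of strain G4, the promoter ratio was 0.13 in i4i5 limb, with an interval that includes 0 (-0.10 to 0.35). It was 0.40 in i4i5ZRS limb (0.20 to 0.61) and 0.46 in i4i5 plus ZRSreg limb (0.27 to 0.64).

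**Figure D4:**
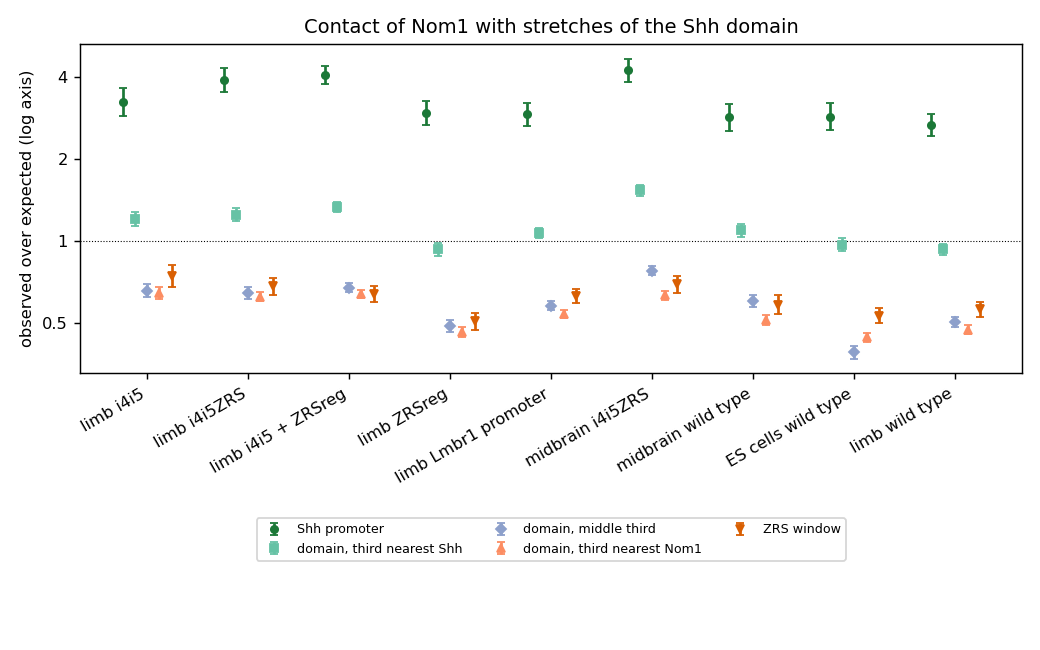
Observed over expected contact (log axis) of Nom1 with the Shh promoter, the 3 stretches of the domain and the ZRS window in the 9 maps, with 95% counting intervals. The Shh promoter stands between 2.66 and 4.21, and the middle and near stretches and the ZRS window stand below 1 in every map.

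The ZRS window, at the near end, also gained. It had 0.747 in i4i5 limb (0.681 to 0.820), 0.683 in i4i5ZRS limb (0.633 to 0.736) and 0.642 in i4i5 plus ZRSreg limb (0.600 to 0.687), against 0.564 in wild type limb (0.529 to 0.601). It had 0.696 in i4i5ZRS midbrain (0.647 to 0.747), against 0.586 in wild type midbrain (0.543 to 0.633). The log2 ratios were 0.41, 0.28, 0.19 and 0.25, with intervals that leave out 0. The intervals of the 3 limb ratios overlap, from 0.24 to 0.57 in i4i5, from 0.13 to 0.42 in i4i5ZRS and from 0.05 to 0.32 in i4i5 plus ZRSreg. Whether any of these deletions takes away part of the window was not checked.

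Below the domain both i4i5ZRS maps had less contact than wild type. In the 300 kb beyond the flank, at 1110 to 1400 kb from Nom1, contact was 1.40 in i4i5ZRS limb, 1.66 in i4i5 limb and 1.76 in i4i5 plus ZRSreg limb, against 1.80 in wild type limb. In midbrain it was 1.40 in i4i5ZRS, against 1.79 in wild type. The log2 ratio was -0.36 in i4i5ZRS limb (-0.44 to -0.28) and -0.36 in i4i5ZRS midbrain (-0.44 to -0.27), with 2 of 30 bins higher in each. These 2 comparisons use different wild type maps. In i4i5 limb it was -0.12 (-0.20 to -0.04). In i4i5 plus ZRSreg limb it was -0.03 (-0.09 to 0.03). The stretch was chosen after its values had been seen. Among the 3 lowest partners of each comparison were bins 1250 kb away in i4i5ZRS limb (1.51 against 2.45 in wild type limb, over 3 bins) and 1230 kb away in i4i5ZRS midbrain (1.18 against 1.86 in wild type midbrain). The place 1250 kb away was also among the 3 lowest in i4i5 limb (1.74, ratio -0.50, -0.71 to -0.29). It was so in wild type midbrain over limb as well (1.88, ratio -0.39, -0.58 to -0.19). These ratios have the same denominator, so that a high wild type limb value enters each of them.

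Among single places of the domain, the largest gain over a mean of 3 bins fell 370 kb below Nom1 (around chr5:29400001-29410000) in each of the 3 limb maps. Contact there was 0.643 in i4i5 limb, 0.592 in i4i5ZRS limb and 0.617 in i4i5 plus ZRSreg limb, against 0.351 in wild type limb. The log2 ratios were 0.88 (0.42 to 1.33), 0.76 (0.37 to 1.14) and 0.81 (0.45 to 1.18). The same place was also among the 3 largest gains in ZRSreg limb (0.441, ratio 0.33, -0.07 to 0.73) and in the Lmbr1 promoter deletion (0.530, ratio 0.60, 0.22 to 0.97). All 5 ratios have the same denominator, and the wild type limb level there rests on 182 contacts and lies next to its lowest domain bin, so that a low wild type value enters each of them. In i4i5ZRS midbrain the largest gain lay 840 kb away, at 1.26 against 0.648 in wild type midbrain (ratio 0.96, 0.60 to 1.31), and the second was the Shh promoter.

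In the deletion of ZRSreg alone the domain contact of Nom1 was near wild type. It was 0.629 in ZRSreg limb (0.610 to 0.648) against 0.638 in wild type limb, a log2 ratio of -0.02 (-0.08 to 0.04), with 39 of 93 bins higher. Of the 91 partners 2 were higher by more than 1.5-fold, or 2.20%, against 1.98% in the region, and 5 were lower, or 5.49%, against 2.56% in the region. Contact with the bins above was 1.05 against 1.07. The near 40 of them were lower by a little, -0.07 (-0.11 to -0.03). The ZRS window had 0.509 in ZRSreg limb (0.472 to 0.548) against 0.564 in wild type limb, a ratio of -0.15 (-0.29 to -0.01). Whether the deleted element takes away part of this window was not checked. This map carries the G4 label of the other deletions.

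The deletion of the Lmbr1 promoter came with a smaller gain. Lmbr1 is the gene before Nom1 in the gene order. Domain contact was 0.732 in the deletion (0.713 to 0.751) against 0.638 in wild type limb, a log2 ratio of 0.20 (0.14 to 0.25), with 78 of 93 bins higher. The 3 stretches gave 0.20, 0.20 and 0.19 from Shh to Nom1, and the 3 Nom1 bins 0.21, 0.15 and 0.23. Of the 91 partners 7 were higher by more than 1.5-fold, or 7.69%, against 2.32% in the region, and 1 was lower (2.35% in the region). The Shh promoter had 2.91 against 2.66, a ratio of 0.13 whose interval (-0.06 to 0.32) includes 0, and the ZRS window 0.630 against 0.564 (ratio 0.16, 0.03 to 0.29). The 6 bins between the domain and Nom1 gave -0.09 (-0.15 to -0.03), and the first of them, 70 kb away, 0.768 against 0.947 (ratio -0.30, -0.52 to -0.09). The near 40 bins above gave -0.11 (-0.15 to -0.07). The domain gain depends on the scale, being 0.02 when the signal is taken as a share of each bin's total.

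Windows of the same size around the border show where Nom1 stands. Across 41 windows of 3 bins from 200 kb below to 200 kb above Nom1, domain over above was positive inside the domain and crossed 0 between 100 and 60 kb below Nom1 in the limb maps. In i4i5 limb it was 0.42 at 100 kb below, -0.19 at 60 kb below, -0.34 at Nom1 and 0.11 at 50 kb above. In wild type limb it was 0.74, -0.67, -0.75 and -0.22 at these places. Nom1 thus lies in the dip just past the border, and in the limb maps of i4i5, i4i5ZRS and i4i5 plus ZRSreg the windows 30 to 100 kb above it had more contact with the domain than with the bins above (0.04 to 0.22). In wild type limb those windows stood at -0.32 to -0.16. At 120 to 180 kb above, the same 3 maps were back below 0, at -0.21 to -0.05, against -0.57 to -0.42 in wild type limb.

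**Figure D5:**
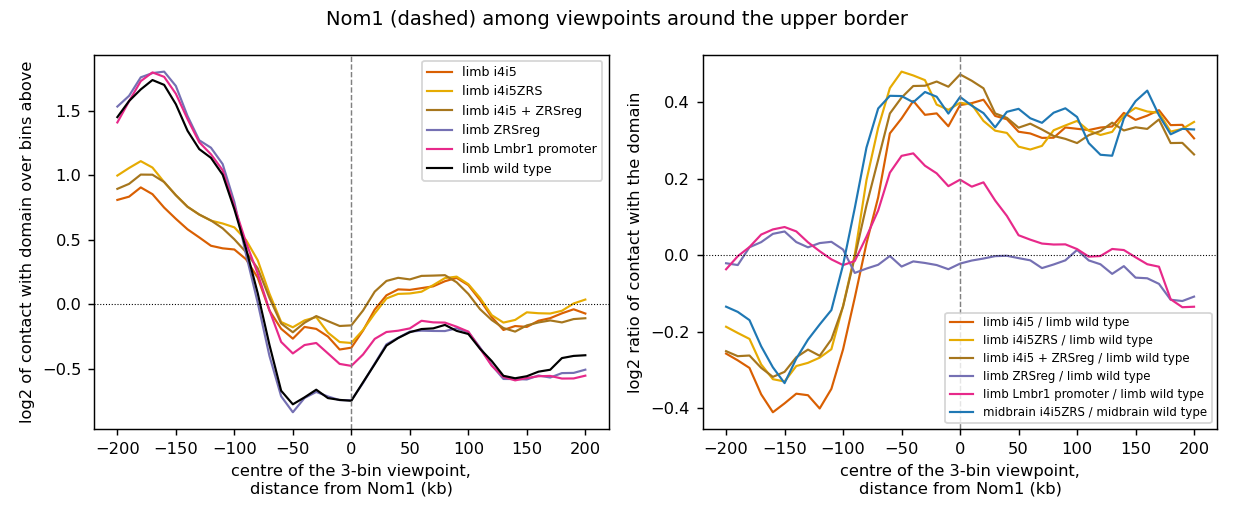
Windows of 3 bins by the distance of their centre from Nom1 in kb, with Nom1 at the dashed line. Left, log2 of contact with the domain over contact with the bins above in the 6 limb maps, and right, log2 ratio of domain contact, deletion over wild type of the same tissue. Lines of the 4 maps that lack i4 and i5 run between about 0.26 and 0.48 from 50 kb below Nom1 upwards, and the Lmbr1 promoter line falls to -0.13 at 200 kb above.

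The gain in domain contact was shared by the neighbouring windows in the maps that lack i4 and i5. Over the 18 windows at 30 to 200 kb above Nom1 the median log2 ratio was 0.33 in i4i5 limb (Nom1 0.39), 0.33 in i4i5ZRS limb (Nom1 0.40), 0.33 in i4i5 plus ZRSreg limb (Nom1 0.47) and 0.36 in i4i5ZRS midbrain (Nom1 0.41). In i4i5 plus ZRSreg limb Nom1 had the highest ratio of the 41 windows, and in i4i5ZRS limb the highest was 0.48, 50 kb below Nom1. In the Lmbr1 promoter deletion the same windows had a median of 0.01 and ran from -0.14 to 0.14, beside 0.20 at Nom1, and the highest of the 41 was 0.27, 40 kb below Nom1. For wild type midbrain over limb they had a median of 0.04 and a range of -0.11 to 0.19, beside 0.21 at Nom1. In ES cells over limb the windows ran from -0.73 to 0.38, with a median of -0.25 and -0.08 at Nom1. Differences between windows were not tested.

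Ordered by domain contact, Nom1 was highest in i4i5ZRS midbrain (0.983), then in i4i5 plus ZRSreg limb (0.885), i4i5ZRS limb (0.841) and i4i5 limb (0.837), followed by wild type midbrain (0.738), the Lmbr1 promoter deletion (0.732), wild type limb (0.638), ZRSreg limb (0.629) and ES cells (0.603). Counting intervals of neighbours in this order overlap for i4i5 plus ZRSreg limb and i4i5ZRS, i4i5ZRS and i4i5, midbrain and the Lmbr1 promoter deletion, wild type limb and ZRSreg, and ZRSreg and ES cells. In shares of raw contacts at 20 kb or more, the domain took 26.7% in i4i5ZRS midbrain and 21.5% in wild type midbrain. It took 24.7% in i4i5 limb, 23.5% in i4i5ZRS limb, 23.8% in i4i5 plus ZRSreg limb, 18.3% in ZRSreg limb, 20.7% in the Lmbr1 promoter deletion, 18.0% in ES cells and 19.0% in wild type limb. Their Wilson intervals are narrow, for example 26.2% to 27.2% in i4i5ZRS midbrain and 18.7% to 19.4% in wild type limb. The level depends on the cutoff, since at 50 kb or more the domain took 34.1% in i4i5ZRS midbrain and 24.6% in wild type limb.

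Among 27 other windows of 3 bins above the domain, the one whose domain contact over the 9 maps was most like that of Nom1 was chr5:29700001-29730000, 60 kb below Nom1 (Pearson r = 0.98, n = 9 maps). Next came chr5:30400001-30430000, 640 kb above (r = 0.95), and chr5:29860001-29890000, 100 kb above (r = 0.93). The points share libraries and the same domain bins, so the correlations are descriptions without a p-value, and the lowest of the 27 was 0.72. The window most like Nom1 had domain contacts from 0.864 to 1.30, higher than those of Nom1 in range. In the bins above, the highest partner of Nom1 at 100 kb or more lay at 130 to 220 kb in i4i5 limb, i4i5ZRS limb, the Lmbr1 promoter deletion, i4i5ZRS midbrain and wild type limb (1.505 to 1.64). It lay at 600 to 660 kb in i4i5 plus ZRSreg limb, ZRSreg limb, ES cells and wild type midbrain (1.54 to 1.82). These far bins rest on 72, 138, 66 and 36 contacts in that order. Their intervals are 1.21 to 1.96, 1.53 to 2.16, 1.29 to 2.13 and 1.26 to 2.52. The highest of the near 40 bins above had 1.42, 1.60, 1.47 and 1.42 in these maps, inside the intervals. The place of the highest bin is therefore not resolved there. The lowest bin above, at 100 kb or more, lay at 380 to 480 kb in 8 of the maps and at 530 kb in i4i5ZRS limb.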

How the data were processed

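Each deposited map holds 1 signal value for 2 bins of 10 kb. File names say that the authors merged the samples of a group, kept reads at a mapping quality of 30 and applied KR balancing. Build mm9, Juicer, SAMtools, Bowtie2 2.3.4.1 and cutadapt 1.15 are named in the submitters' processing notes, with settings not given in the sources used here. Balancing gives every bin of a map the same total, but this total differs between maps. Maps were therefore compared mainly as observed over expected. Shares of raw contacts, shares of bin totals and the same measure on counts before balancing are given beside it. Among wild type limb samples, 2 of 3 titles carry 1 library number. For ES cells, 1 sample title ends in another library suffix than the map's name. Contact maps hold no marker expression, so tissue labels were not checked.

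Pairs that are not listed were taken as 0. Whole contact counts were recovered from the balanced signal as a count times 2 bin factors (100% within 0.01 of a whole number in each map). A 95% interval carries the Poisson error of these counts through their weights, with a normal approximation on the log2 scale, and shares have Wilson intervals. The intervals cover counting error only, since each group is 1 merged map. Repeats of a molecule, possible in reads without molecular identifiers, are not covered either. The steps were tested on simulated data and run with Python 3.11.15, NumPy 2.4.6, SciPy 1.17.1, pandas 2.3.3 and Matplotlib 3.10.9. Nom1 is the 3 given bins. Its named partners are the Shh promoter bins, the ZRS window, the first bins beyond the domain and above Nom1, the peak partners of each map and the 3 highest and 3 lowest places of each comparison (mean of 3 bins, 100 kb or more from Nom1, 50 kb apart). The 3 lookalike windows are those with the highest Pearson r. Of these, the places printed are a selection. The gene, the partners and the alternatives were chosen with earlier results of these data known. The promoter over flank measure, the 300 kb stretch below the flank, the sequence motif, ZRSreg limb as a reference and the domain without its 20 lowest bins were added after the values were seen. Contact is a mean over all bin pairs of a side, and called partners are those past 1.5-fold.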

Additional observations from a re-analysis of the deposited data

How the results depend on the processing

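No paired analysis was possible because each group was deposited as 1 merged map, and for the same reason no replicate could be left out. A value counts as moved where it left its 95% counting interval, and for counts where it changed by more than 1.5 times. No value whose counting interval excludes 0 changed sign under the alternatives run. Of those whose interval includes 0, domain over above in i4i5ZRS midbrain and some ratios of the Shh promoter and of the bins above did. The gain of domain contact in the 4 maps that lack i4 and i5 kept its direction in each. The cause of the shifts was not tested. With the median as the expected value, domain over above (log2) was -0.11 in i4i5 plus ZRSreg limb, -0.66 in ZRSreg limb, -0.39 in the Lmbr1 promoter deletion, 0.036 in i4i5ZRS midbrain, -0.42 in wild type midbrain and -0.66 in wild type limb, and the domain gain was 0.28 in i4i5 limb, 0.32 in i4i5ZRS limb and 0.39 in i4i5 plus ZRSreg limb. At separations of 100 to 800 kb, domain over above was -0.66 in i4i5 limb, -0.68 in i4i5ZRS limb, -0.54 in i4i5 plus ZRSreg limb, -1.13 in ZRSreg limb, -0.81 in the Lmbr1 promoter deletion, -0.44 in i4i5ZRS midbrain, -0.84 in wild type midbrain, -1.18 in ES cells and -1.11 in wild type limb, and ES cells over limb gave -0.23 for the domain. With the middle Nom1 bin alone, domain over above was -0.42 in i4i5 limb, -0.54 in the Lmbr1 promoter deletion and -0.44 in wild type midbrain, and the domain ratios were 0.46 in i4i5ZRS limb and 0.29 for wild type midbrain over limb. With counts before balancing, domain over above was -0.12 in i4i5 limb, -0.15 in i4i5ZRS limb, -0.025 in i4i5 plus ZRSreg limb, -0.57 in ZRSreg limb, -0.30 in the Lmbr1 promoter deletion, 0.22 in i4i5ZRS midbrain, -0.23 in wild type midbrain, -0.47 in ES cells and -0.54 in wild type limb. The domain ratios were then 0.14 in the Lmbr1 promoter deletion, 0.14 for wild type midbrain over limb and -0.20 for ES cells over limb. Thinned to the contacts of the shallowest map, domain over above was -0.58 in ES cells and -0.68 in wild type limb. Without the 20 domain bins nearest Shh, the domain ratio was 0.34 in i4i5ZRS midbrain and -0.20 for ES cells over limb. As a share of bin totals, the domain ratio was 0.47 in i4i5 limb, 0.24 in i4i5ZRS limb, 0.37 in i4i5 plus ZRSreg limb, -0.13 in ZRSreg limb, 0.018 in the Lmbr1 promoter deletion, 0.31 in i4i5ZRS midbrain, 0.089 for wild type midbrain over limb and -0.25 for ES cells over limb. Past 2-fold in place of 1.5-fold, higher partners among the 91 of the domain numbered 3 in i4i5 limb, 2 in i4i5ZRS limb and 4 in i4i5 plus ZRSreg limb. They numbered 0 in ZRSreg limb, 0 in the Lmbr1 promoter deletion, 2 in i4i5ZRS midbrain, 1 for wild type midbrain over limb and 0 for ES cells over limb. The share of the region past 2-fold was not computed, so these counts stand without a background. Leaving out the first bin above, or taking ZRSreg limb as the reference, moved none of the side and domain values. Of 43 alternatives for the Shh promoter, 7 moved, and of 59 for the bins above, 15 moved. Shares of contacts in the domain and above moved in 18 of 18 cases when taken at 50 kb or more. Depth limits single partners most, the lowest domain bins resting on as few as 5 contacts.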

Other observations

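The recovered factors of the 3 Nom1 bins were alike in the 9 maps, from 0.605 to 0.675 for the first, from 1.19 to 1.34 for the second and from 0.708 to 0.763 for the third bin. The second bin had the fewest contacts of the 3 in every map, for example 6660 against 13492 and 11235 in i4i5 limb. The mean per bin of the 3 Nom1 bins exceeded that of the 6 neighbouring bins by 0.17 to 0.25 on the log2 scale. The coverage of Nom1 relative to its neighbours thus differed little between maps.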
